A study of Homo sapiens with 9 samples.

Results

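The ETS family of transcription factors was followed across 9 RNA-seq libraries of TC-32, a human cell line established from Ewing sarcoma, in which the fusion oncogene EWSR1::FLI1 is present. The members are given by gene symbol, by a list that names no measured value but was drawn up with earlier results of these data known. They are ETS1, ETS2, ERG, FEV, ETV1, ETV4, ETV5, ETV6, ELK3 and GABPA, 10 of the 58381 genes in the count table. All 9 libraries came from TC-32 cells transduced with the lentiviral vector pLOC, and the vector of the control group, RFP, carried a red fluorescent protein. The vector of the other 2 groups carried a synthetic human ETS1 cDNA, and the series describes clones from single cells with ETS1 near the level of cells depleted of EWSR1::FLI1 (ETS1-High), and cells with less ETS1 (ETS1-Low). Transduced cells of all groups were selected with puromycin and sorted as single cells, and EWSR1::FLI1 was left in place in all 3 groups. Each group had 3 libraries, and the labels give neither the number of clones behind a group nor whether its 3 libraries came from separate cultures, so p-values here measure the spread between libraries as labelled, which may be technical. A difference between clones that preceded ETS1 and a response to ETS1 cannot be told apart in this design.

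ETS proteins share a DNA-binding domain, the ETS domain, that reads a GGAA core in DNA, and neighbouring bases and partner proteins set which sites each protein takes. In Ewing sarcoma the domain reaches the fusion protein through an ETS gene, most often FLI1 and less often ERG, FEV, ETV1 or ETV4. Other members act as nuclear ends of the RAS and ERK pathway, as repressors, or as regulators of genes that every cell uses. The question was how the other ETS factors stood beside an ETS1 that was introduced.

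The libraries held 39484704 to 46654734 expected counts each, and 8 of the 10 members passed the filter on low counts; ERG and FEV did not. The Ewing sarcoma markers were all detected, 10 of 10 in each group, and their sums were 1181 to 1219.9, 1755 to 1789 and 1786 to 1825 CPM (the counts of a gene relative to the total of its library, with library sizes scaled by TMM) for RFP, ETS1-Low and ETS1-High. Of 6 markers per list, endothelial markers above 3 counts numbered 5, 3 and 3 in RFP, ETS1-Low and ETS1-High, with sums of 2.38 to 3.08, 3.96 to 4.58 and 5.87 to 6.76 CPM, TIE1 at no more than 3 counts and VWF at 0 in both ETS1 groups. Blood markers numbered 4, 1 and 4, with sums of 1.15 to 1.73, 0.245 to 0.269 and 0.358 to 0.736 CPM and CD3E at 0 throughout. Epithelial markers numbered 3, 5 and 4, with sums of 78.2 to 82.6, 157 to 166 and 112 to 114 CPM. Fibroblast markers numbered 3, 3 and 5, with sums of 215 to 238, 373 to 376 and 493 to 528 CPM, and LUM was at 0 in RFP and ETS1-Low. KRT18 made up most of the epithelial sum, with means of 78.3, 155 and 108 CPM in the same group order. COL3A1 did so for the fibroblast sum (176, 342 and 450.3), while PDGFRA fell from 12.8 to 3.72 and 2.95. COL1A1 was below its RFP mean in ETS1-Low alone. Among the Ewing sarcoma markers KDSR rose from 109 to 431 and 425, while CCK and NPY1R were lower in both ETS1 groups. TEK, an endothelial marker, fell from 0.766 to 0.0378 and 0.00846 CPM, while PECAM1 and CLDN5 rose. The part of these differences in the results below was not tested.

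Against this background the members changed in both directions. A gene was called where its adjusted p was under 0.05 in edgeR's quasi-likelihood test, adjusted over 17235 genes by Benjamini-Hochberg. ETS1-High against RFP gave 8 calls among the 8 tested members, 3 higher and 5 lower, and the members' median log2 fold change was -0.35. Of all genes tested, 74.2% were called there, 37.0% higher and 37.2% lower, with a median of -0.01, so a call by itself says little about a member. ETS1-Low against RFP gave 5 calls, 4 higher and 1 lower, and a median of 0.14. Over all genes 74.1% were called there, 37.9% higher and 36.2% lower, and the median was 0.01. ETS1-High against ETS1-Low gave 8 calls, 3 higher and 5 lower, and a median of -0.40. Over all genes 59.2% were called there, 29.9% higher and 29.3% lower, and the median was 0.00. The libraries of the groups did not overlap for 8, 6 and 8 members in these comparisons, and for 75.5%, 76.0% and 63.2% of all genes. Changes of at least 2-fold were called for 3, 2 and 3 of the 8 members in these comparisons, where 21.0%, 20.6% and 9.74% of all genes made such a change. These totals include ETS1, the introduced gene, whose rise was set by the design. The other 7 tested members gave 7, 4 and 7 calls, beside 74.2%, 74.1% and 59.2% over all genes. Their medians were -0.38, 0.11 and -0.55, and changes of at least 2-fold were called for 2, 1 and 3 of them. ETV4 is in all of these counts, although it passed the low-count filter only through RFP and ETS1-Low. With at least 10 counts required in every library it was not tested. That filter gave 7 calls among 7 tested members, ETS1 included, in ETS1-High against RFP, 3 higher and 4 lower. ETS1-Low against RFP gave 5 there, 3 higher and 2 lower. Over all genes 11154 and 11179 of 14420 were called. Both comparisons with RFP use the same RFP libraries.

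**Figure D1:**
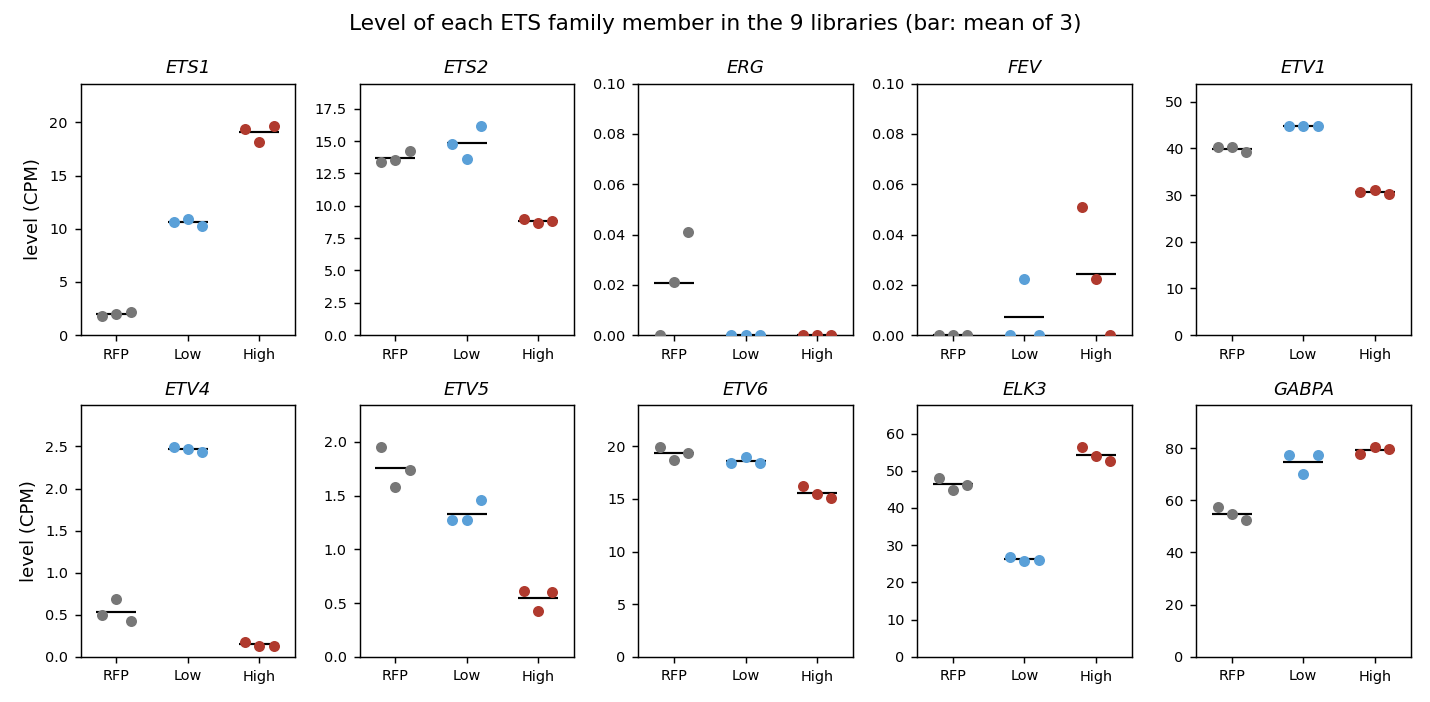
Level of each of the 10 members in CPM (y axis from 0, scaled per gene) in the 3 RFP, 3 ETS1-Low and 3 ETS1-High libraries, each point 1 library and each bar the mean. ETS1 climbs in steps from RFP to ETS1-High, ETV4 peaks in ETS1-Low near 2.47 CPM, ELK3 dips there to 26.1 CPM, and ERG and FEV stay at 0 to 2 counts.

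ETS1 (chromosome 11, 128458761 to 128587558, minus strand; all positions are on GRCh38), the founding member of the family, is a factor of lymphoid, endothelial and invasive tumour cells. It had 87, 95 and 105 expected counts in the RFP libraries, 400, 488 and 420 in ETS1-Low and 765, 817 and 879 in ETS1-High. The groups did not overlap, and on the length-scaled FPKM scale its mean was 0.590 ± 0.0794 in RFP, 2.78 ± 0.142 in ETS1-Low and 5.23 ± 0.193 in ETS1-High (SD, n = 3). Its fold size was 5.29 in ETS1-Low and 9.55 in ETS1-High against RFP, and 1.81 between the ETS1 groups (adjusted p = 4.29e-29, 4.40e-36 and 8.11e-16, edgeR). The groups were defined by ETS1, so these differences follow from the design and only their size is informative. Gene-level counts do not separate the vector copy from the endogenous gene. The gene length implied by the share of counts divided by the deposited FPKM was 3.34 to 3.86 kb for ETS1 in RFP and 3.53 to 3.63 kb in ETS1-High.

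The weight of ETS1 within the family was read as its share of the summed FPKM of all 28 human ETS genes. That share was 0.250%, 0.265% and 0.319% in the RFP libraries, 1.28%, 1.43% and 1.24% in ETS1-Low, and 2.35%, 2.23% and 2.31% in ETS1-High. The groups did not overlap, and the exact two-sided permutation test gave p = 0.1 in each comparison, the smallest it can give with 3 libraries against 3. Since ETS1 defined the groups, this separation follows from the design. Among the 10 members alone the share was 1.26 ± 0.185% in RFP, 6.03 ± 0.554% in ETS1-Low and 10.4 ± 0.229% in ETS1-High (SD, n = 3). The summed FPKM of the whole family was 212 ± 1.05 in RFP, 211 ± 5.78 in ETS1-Low and 228 ± 3.55 in ETS1-High (SD, n = 3). On the FPKM scale the other ETS genes together thus exceeded ETS1 in every library. FLI1 alone did so by 29.1 to 38.3 times in RFP and 4.92 to 5.21 times in ETS1-High. FPKM divides by gene length, and the length implied for ETS1 was similar in RFP and ETS1-High. If the vector cDNA was shorter, or reads of its synthetic sequence were lost, ETS1 is understated in the ETS1 groups. That was not tested. The FLI1 count includes any fusion transcript that keeps FLI1 exons.

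ETS2 (chromosome 21, 38805183 to 38824955, plus strand) is the closest relative of ETS1 and, like it, a target of RAS and ERK signalling. It had 647, 634 and 695 expected counts in RFP, 558, 612 and 663 in ETS1-Low and 355, 389 and 394 in ETS1-High. The ETS1-High libraries lay below both other groups, which overlapped each other. In CPM the mean was 13.7 ± 0.437 for RFP, 14.9 ± 1.29 for ETS1-Low and 8.83 ± 0.180 for ETS1-High (SD, n = 3). ETS2 fell in ETS1-High by 0.64 on the log2 scale against RFP (SE 0.07, adjusted p = 1.09e-11, edgeR) and by 0.75 against ETS1-Low (SE 0.07, adjusted p = 1.82e-13, edgeR). Between ETS1-Low and RFP the log2 fold change was 0.11 with a 95% interval from -0.02 to 0.24 (adjusted p = 0.122, edgeR), and without ETS1-Low replicate 2 it was 0.18 and passed (adjusted p = 0.0281). The ratio of ETS2 to ETS1 in FPKM was 7.05 ± 0.620 in RFP, 1.50 ± 0.194 in ETS1-Low and 0.497 ± 0.0286 in ETS1-High (SD, n = 3), so the order of the pair was opposite in RFP and in ETS1-High. An exon of ETS2 overlaps a noncoding gene on the opposite strand, and although the libraries were made with a stranded kit, whether the counting used strand is not given in the sources used here.

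ETV1, ETV4 and ETV5 form the PEA3 group, activators that are turned on downstream of receptor kinases and ERK. ETV4 (chromosome 17, 43527844 to 43579620, minus strand) had 24, 32 and 21 expected counts in RFP, 94, 111 and 100 in ETS1-Low and 7, 6 and 6 in ETS1-High. The 3 groups did not overlap, and ETS1-Low stood above RFP while ETS1-High stood below it. Against RFP its log2 fold change was 2.20 for ETS1-Low (SE 0.21, adjusted p = 4.25e-13, edgeR). The fitted change of ETS1-High was -1.84 against RFP and -4.04 against ETS1-Low. From the summed counts, ETS1-Low exceeded ETS1-High 16.7 times, with an exact 95% counting interval of 10.5 to 28.2 that covers counting error only. ETV4 passed the low-count filter through RFP and ETS1-Low and not through ETS1-High. With at least 10 counts required in every library it was not tested. Its values in both comparisons with ETS1-High rest on 6 to 7 counts a library there and are given as a description. ETV4 overlaps an exon of DHX8 on the opposite strand.

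ETV5 (chromosome 3, 186046314 to 186110318, minus strand) had 94, 74 and 85 expected counts in RFP, 48, 57 and 60 in ETS1-Low and 24, 19 and 27 in ETS1-High. The counts fell in the order of the groups without overlap. ETV5 fell in ETS1-High by 1.69 on the log2 scale relative to RFP (SE 0.22, adjusted p = 1.08e-09, edgeR) and by 1.29 relative to ETS1-Low (SE 0.23, adjusted p = 2.46e-06, edgeR). Between ETS1-Low and RFP it was -0.40 with a 95% interval from -0.78 to -0.02 and did not pass (adjusted p = 0.0534, edgeR). That difference did pass in 9 alternative edgeR fits, at -0.40 to -0.47 with adjusted p between 0.0266 and 0.0487. These were the fits with DESeq2 size factors, with upper-quartile factors, with at least 10 counts in every library, with RFP and ETS1-Low alone, and without RFP replicate 2, ETS1-Low replicate 3 or ETS1-High replicate 1, 2 or 3. The deposited FPKM values of ETV5 follow its counts poorly: RFP replicate 2, with the fewest counts of its group, had 1.09 FPKM, and the other 2 RFP libraries had 0.520 and 0.490. The implied length ranged from 1.55 to 3.93 kb across the RFP libraries and from 1.04 to 1.53 kb in ETS1-High. In log2(FPKM + 1), a scale that shrinks the changes of weakly expressed genes, ETS1-High differed from RFP by -0.25 (adjusted p = 0.247, limma) and from ETS1-Low by -0.08 (adjusted p = 0.815, limma), and neither passed. ETV5 also shares an exon region with DGKG on the same strand.

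ETV1 was far more abundant than the other PEA3 genes. ETV1 (chromosome 7, 13891229 to 13991425, minus strand) had 1935, 1886 and 1915 expected counts in RFP, 1692, 2021 and 1829 in ETS1-Low and 1204, 1396 and 1351 in ETS1-High. After scaling for library size, RFP held 39.2 to 40.2 CPM, ETS1-Low 44.7 to 44.9 and ETS1-High 30.3 to 31.1, without overlap. ETV1 fell in ETS1-High by 0.38 on the log2 scale against RFP (SE 0.04, adjusted p = 2.14e-12, edgeR) and by 0.55 against ETS1-Low (SE 0.04, adjusted p = 2.31e-17, edgeR). It rose in ETS1-Low against RFP by 0.17 (SE 0.04, adjusted p = 1.01e-04, edgeR), but in FPKM both groups had a mean of 11.9 and the difference of 0.01 did not pass (adjusted p = 0.901, limma on log2(FPKM + 1)). The 85 tested genes within 10 Mb of ETV1 on chromosome 7 had a median relative to RFP of -0.15 for ETS1-High and -0.14 for ETS1-Low. Summed over ETV1, ETV4 and ETV5, FPKM was 13.0 ± 0.323 in RFP, 13.8 ± 0.772 in ETS1-Low and 9.13 ± 0.111 in ETS1-High (SD, n = 3), and ETS1-High lay below the other groups in every library (exact two-sided permutation p = 0.1 in both comparisons, the smallest possible).

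ELK3 (chromosome 12, 96194375 to 96269824, plus strand) belongs to the ternary complex factors, which bind with serum response factor at serum response elements, and it acts as a repressor until ERK phosphorylates it. The RFP libraries had 48.1, 44.8 and 46.2 CPM, the ETS1-Low libraries 26.9, 25.7 and 25.9, and the ETS1-High libraries 56.3, 54.0 and 52.6. ETS1-Low lay below both other groups and ETS1-High above them, the reverse of ETV4. ELK3 fell in ETS1-Low by 0.83 on the log2 scale against RFP (SE 0.04, adjusted p = 7.94e-24, edgeR). From ETS1-Low to ETS1-High the level of ELK3 rose by 1.05 (SE 0.04, adjusted p = 9.13e-28, edgeR), a fold size of 2.08. The difference between ETS1-High and RFP was 0.23 (SE 0.04, adjusted p = 5.90e-07, edgeR), and in FPKM it was 0.10 and did not pass (adjusted p = 0.105, limma on log2(FPKM + 1)). An exon of ELK3 overlaps a noncoding gene on the opposite strand.

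GABPA (chromosome 21, 25734570 to 25772460, plus strand) is the DNA-binding subunit of GA-binding protein, which pairs with GABPB1 or GABPB2 and serves promoters of mitochondrial and ribosomal genes. The RFP libraries had 57.3, 54.6 and 52.6 CPM, the ETS1-Low libraries 77.2, 69.9 and 77.3, and the ETS1-High libraries 77.7, 80.3 and 79.7. Both ETS1 groups lay above RFP. GABPA rose by 0.53 in ETS1-High (SE 0.04, adjusted p = 1.86e-17, edgeR) and by 0.45 in ETS1-Low (SE 0.04, adjusted p = 9.04e-15, edgeR). The further difference of 0.09 between the ETS1 groups passed narrowly (adjusted p = 0.0411, edgeR) and was 0.04 and not past the threshold without ETS1-Low replicate 2 (adjusted p = 0.432). It did not pass without ETS1-High replicate 2 (0.08, adjusted p = 0.118), without ETS1-High replicate 3 (0.08, adjusted p = 0.0921) or in DESeq2 (0.10, adjusted p = 0.0538), nor with upper-quartile factors (0.08, adjusted p = 0.0684). On the FPKM scales it was 0.11 to 0.12 and did not pass either (adjusted p = 0.0889 to 0.165, limma). GABPA had fractional expected counts in all 9 libraries, and an exon of it overlaps one of ATP5PF on the opposite strand.

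ETV6 (chromosome 12, 11649674 to 11895377, plus strand) is a transcriptional repressor that acts in blood cell development and is joined to many partners in leukaemia fusions. The RFP libraries had 19.9, 18.7 and 19.4 CPM, the ETS1-Low libraries 18.4, 19.0 and 18.4, and the ETS1-High libraries 16.2, 15.5 and 15.1. The ETS1-High libraries lay below the others, and RFP and ETS1-Low overlapped. ETV6 fell in ETS1-High by 0.31 against RFP (SE 0.06, adjusted p = 1.92e-06, edgeR) and by 0.26 against ETS1-Low (SE 0.06, adjusted p = 8.67e-05, edgeR). Between ETS1-Low and RFP its log2 fold change was -0.05 with a 95% interval from -0.16 to 0.06 (adjusted p = 0.386, edgeR).

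ERG (chromosome 21, 38380027 to 38661780, minus strand) and FEV (chromosome 2, 218981087 to 218985184, minus strand), which can take the place of FLI1 in Ewing sarcoma fusions, were at or near 0. ERG had 0, 1 and 2 counts in the RFP libraries and 0 counts in the 6 ETS1 libraries. FEV had 0 counts in RFP, 0, 1 and 0 in ETS1-Low and 2, 1 and 0 in ETS1-High. A count of 0 allows up to 3 counts, which is 0.061 to 0.079 CPM per library here, so no difference between groups was detectable for either gene and no fold is given.

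**Figure D2:**
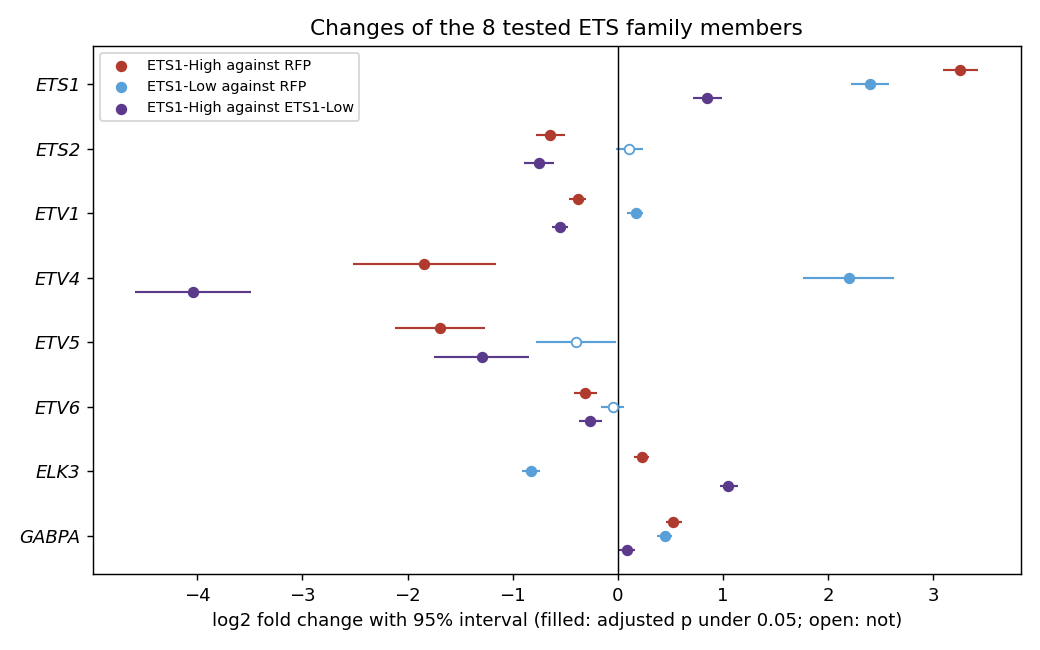
Log2 fold changes of the 8 tested members (rows) with 95% intervals in the 3 comparisons, filled where the adjusted p was under 0.05. ETS1 lies to the right in all 3 comparisons, ETV4 lies at 2.20 in ETS1-Low and at -1.84 in ETS1-High against RFP, and ELK3 lies at -0.83 and 0.23. In both comparisons with ETS1-High the places of ETV4 rest on 6 to 7 counts a library there and are a description.

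In CPM, ETV4, ETV1 and ELK3 did not follow the order of the ETS1 levels, since ETS1-Low stood at one end of their range and ETS1-High at the other. ETS2 and ETV6 were lower in ETS1-High, and no difference between ETS1-Low and RFP passed the test for them.

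The genes around each member were set beside these changes, because neighbouring genes can shift together in clones of a tumour line. Within 10 Mb of ETS1 on chromosome 11, 97 tested genes had medians of 0.07 for ETS1-High and 0.05 for ETS1-Low relative to RFP, and 0.00 between the ETS1 groups. Around ETV4 on chromosome 17, 335 genes had, in that order, medians of -0.06, -0.01 and -0.07, and around ETV5 on chromosome 3, 99 genes had medians of -0.01, -0.04 and 0.06. Around ELK3 on chromosome 12, 98 genes had medians of 0.10, 0.12 and -0.04. ELK3 in ETS1-High against RFP was 0.13 above its neighbours, and GABPA in ETS1-High against ETS1-Low was at -0.05 relative to its 60 neighbours on chromosome 21. ETS2, also on chromosome 21, fell in ETS1-High while its 141 neighbours had medians of 0.10 against RFP and 0.16 against ETS1-Low.

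**Figure D3:**
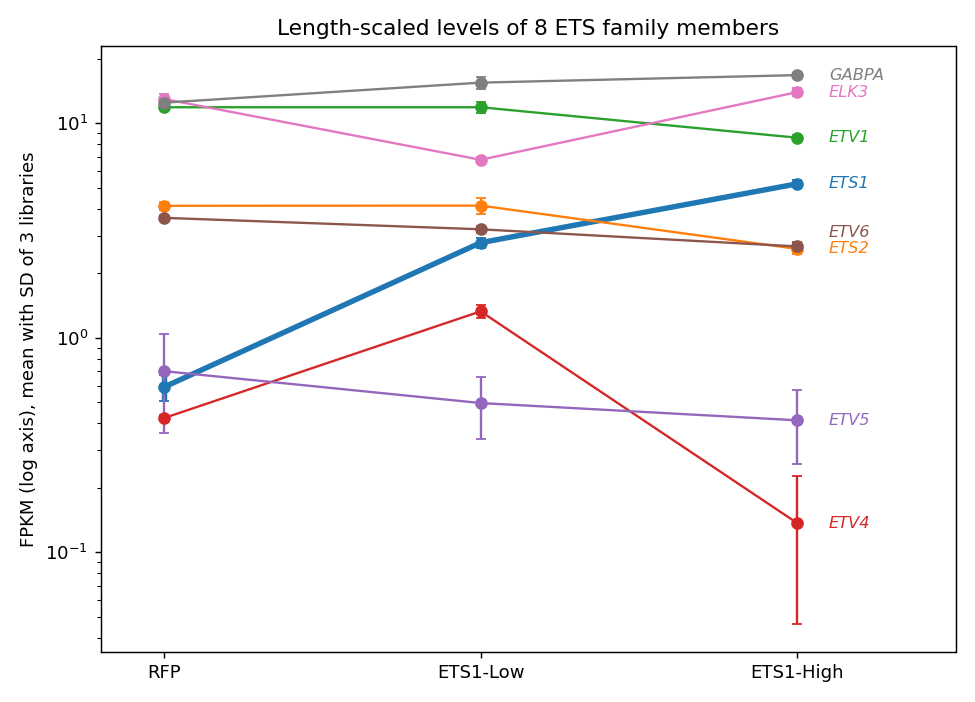
Mean FPKM with SD (log y axis, 3 libraries a group) of the 8 tested members in RFP, ETS1-Low and ETS1-High. ETS1, the thick line, goes from 0.590 to 5.23 and passes ETS2 and ETV6. Its RFP libraries overlap those of ETV5. ELK3 has the highest mean in RFP at 13.0, where its libraries overlap those of GABPA, and GABPA leads in ETS1-High at 16.8.

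The order of the members was read on the FPKM scale. In RFP it ran ELK3 (13.0), GABPA (12.5), ETV1 (11.9), ETS2 (4.13), ETV6 (3.63), ETV5 (0.700), ETS1 (0.590) and ETV4 (0.423), with ERG and FEV at the bottom. The libraries of ELK3 and GABPA overlapped, as did those of GABPA and ETV1 and of ETV5 and ETS1, so these neighbours were not separated. In ETS1-Low GABPA led at 15.5, ahead of ETV1 at 11.9 and ELK3 at 6.77, and ETS1 was at rank 6, below ETV6 at 3.21. In ETS1-High GABPA led at 16.8, ELK3 followed at 14.0 and ETV1 at 8.58, and ETS1 was at rank 4. There ETV6 at 2.67 and ETS2 at 2.60 overlapped. The rank of ETS1 in both ETS1 groups depends on the length that FPKM assumes for it.

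Sequences upstream of the members were read because ETS proteins bind the letters GGAA, and the members that changed in opposite directions are shown. Promoter windows from RefSeq (GRCh38.p14) matched 7 of the 10 members, all but ETS1, ETV4 and ETV5. The 250 bases before the most upstream RefSeq start in that table were searched, and they are printed 5′ to 3′ in the direction of the gene, with each GGAA, or TTCC where it is on the other strand, in capitals. That start can differ from the GENCODE start given above: the windows of GABPA and ERG lie inside the genes as GENCODE places them, and the GABPA window overlaps exons of GABPA and ATP5PF. For GABPA only the 30 bases around a longer match are shown.
ETV1, chr7:13991426-13991675, minus strand: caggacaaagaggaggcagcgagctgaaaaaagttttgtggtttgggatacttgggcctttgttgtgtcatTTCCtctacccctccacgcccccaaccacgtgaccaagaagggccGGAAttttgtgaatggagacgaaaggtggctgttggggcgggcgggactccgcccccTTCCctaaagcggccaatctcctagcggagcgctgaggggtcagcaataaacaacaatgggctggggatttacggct
ETS2, chr21:38804933-38805182, plus strand: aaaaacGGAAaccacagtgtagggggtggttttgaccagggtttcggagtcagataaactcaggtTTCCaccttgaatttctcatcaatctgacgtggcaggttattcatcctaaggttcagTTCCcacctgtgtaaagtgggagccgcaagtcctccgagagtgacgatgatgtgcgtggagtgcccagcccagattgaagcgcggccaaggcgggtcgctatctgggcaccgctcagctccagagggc
ELK3, chr12:96194125-96194374, plus strand: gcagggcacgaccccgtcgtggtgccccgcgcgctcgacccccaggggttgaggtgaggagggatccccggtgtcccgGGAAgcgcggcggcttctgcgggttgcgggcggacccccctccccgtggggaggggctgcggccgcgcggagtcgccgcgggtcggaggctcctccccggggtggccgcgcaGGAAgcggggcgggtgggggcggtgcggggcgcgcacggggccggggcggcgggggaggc
GABPA, chr21:25734894-25734923, plus strand: acctccgctctacTTCCggccctggctccg

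ETV1 and ETS2 held 3 core matches each, ELK3 2 and GABPA 1. A core match is common: 92.8% of the 27305 promoter windows of the same length hold at least 1, with a median of 3. The longer form CGGAAG, which contains the core and was searched on both strands, was present in the GABPA window, 66 bases before its RefSeq start and thus within the gene as annotated by GENCODE, and in none of the other 6 members with a window, against 16.7% of all windows. GGAAGGAA, a doubled core, was in no member's window and in 3.0% of all windows. Such a match is a description of the letters, not a binding site.

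The other 18 human ETS genes were examined as a list, and 13 were tested. ETS1-High against RFP gave 10 calls (74.2% over all genes), 6 higher and 4 lower, and a median of 0.43. ETS1-Low against RFP also gave 10 calls (74.1% over all genes), 6 higher and 4 lower, and a median of 0.22, while limma on FPKM with a minimum of 1 gave 2 higher and 4 lower. ETS1-High against ETS1-Low gave 8 calls (59.2% over all genes), 5 higher and 3 lower, and a median of 0.22. The shares of the list called lay near those over all genes. FLI1, the ETS gene of the fusion, held 51.0 to 53.3 CPM across RFP, 59.6 to 61.6 across ETS1-Low and 70.4 to 71.4 across ETS1-High. FLI1 rose by 0.22 in ETS1-Low and 0.45 in ETS1-High relative to RFP, and ETS1-High exceeded ETS1-Low by 0.22 (adjusted p = 1.16e-07, 7.73e-17 and 1.21e-07, edgeR). The largest rises in ETS1-High were those of ETV7, EHF and ELF1, and the largest falls those of ETV3L, ELF3 and ETV3.

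ETV7, a relative of ETV6 that is known as an interferon-induced repressor, had 3, 1 and 1 counts in RFP, 41, 39 and 55 in ETS1-Low and 56, 62 and 51 in ETS1-High. From the summed counts its level in ETS1-High was 37.7 times that in RFP (exact 95% counting interval 15.8 to 118) and in ETS1-Low 31.4 times (13.1 to 98.2). ETV7 and EHF passed the low-count filter only through the ETS1 groups, so their values are given as a description. EHF, an epithelial ETS factor, had 9, 7 and 4 counts in RFP, 17, 15 and 13 in ETS1-Low and 96, 67 and 86 in ETS1-High. ELF3, another epithelial factor, fell from 1.66 ± 0.281 CPM to 0.463 ± 0.152 and 0.346 ± 0.0505 CPM (adjusted p = 4.74e-09 and 4.27e-11, edgeR). ELF1 rose by 0.63 in ETS1-High (adjusted p = 8.92e-09, edgeR).

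ETV3, a repressor, held 96.2 to 97.2 CPM across RFP, 111 to 114 across ETS1-Low and 65.4 to 70.5 across ETS1-High, so like ETV1 it stood highest in ETS1-Low and lowest in ETS1-High. Relative to RFP its log2 fold change was 0.22 for ETS1-Low and -0.52 for ETS1-High, and it was -0.73 between the ETS1 groups (adjusted p = 2.96e-08, 9.32e-20 and 2.30e-25, edgeR). ETV3L, its relative, had 17.4 to 38.8 counts in RFP, 9.15 to 10.2 in ETS1-Low and 1.01 to 2.04 in ETS1-High. From the rounded sums the level in RFP was 19.5 times that in ETS1-High (95% counting interval 7.35 to 73.2). Expected counts of ETV3 and ETV3L were fractional in every library, so this interval is approximate. ETV3L passed the low-count filter through RFP and not through ETS1-High, so its values are given as a description.

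**Figure D4:**
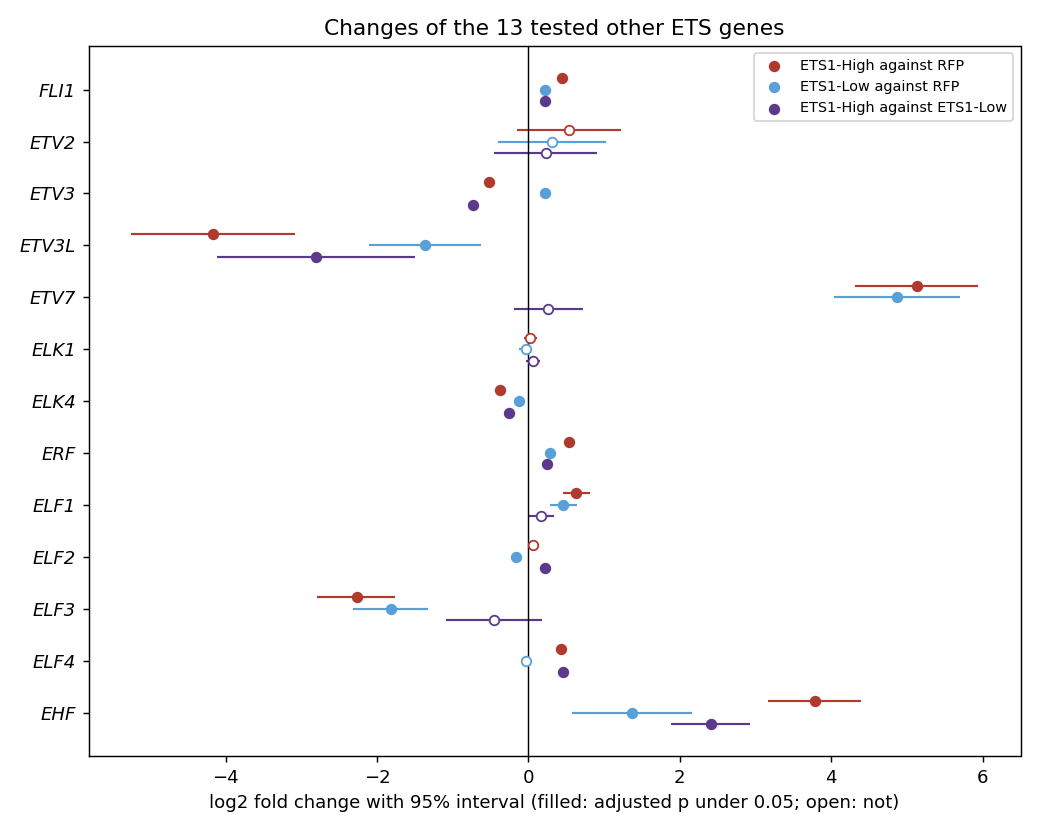
Log2 fold changes of the 13 tested ETS genes outside the 10 members (rows) with 95% intervals in the 3 comparisons, filled where the adjusted p was under 0.05. In ETS1-High against RFP, ELF3 lies to the left at -2.27 and FLI1 at 0.45. EHF lies far to the right there at 3.78, a description only, since its RFP libraries had 4 to 9 counts. The fitted places of ETV7 and ETV3L rest on 1 to 3 counts in a group and depend on the prior count.

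Proteins that work with ETS factors were followed as a list of 28 genes. ETS1-High against RFP gave 14 higher and 10 lower calls, 4 genes did not pass, and the median was 0.08. ETS1-Low against RFP gave 13 higher and 10 lower calls with a median of 0.05. On FPKM with a minimum of 1, limma turned these splits to 10 higher and 13 lower and to 9 higher and 12 lower. ETS1-High against ETS1-Low gave 10 higher and 7 lower calls with a median of 0.02, or 6 higher and 7 lower without ETS1-Low replicate 2, and 8 higher and 9 lower on FPKM with a minimum of 1. The 24, 23 and 17 calls among 28 genes stand beside 74.2%, 74.1% and 59.2% over all genes. SP100, a nuclear body protein that binds ETS1, rose from a mean of 3.58 ± 0.125 CPM to 23.8 ± 0.329 with ETS1-Low and 38.7 ± 1.01 with ETS1-High (SD, n = 3; adjusted p = 4.94e-38 and 1.94e-43, edgeR). RUNX3, of the RUNX family that pairs with ETS1 on DNA, rose from 8.74 ± 0.587 to 33.9 ± 1.63 and 39.7 ± 2.07 CPM (adjusted p = 5.11e-34 and 1.78e-36, edgeR). RUNX2 of the same family fell from 14.4 to 9.25 and 5.07 CPM (adjusted p = 1.41e-11 and 7.91e-24, edgeR), and RUNX1, which passed the low-count filter only through RFP, had means of 0.419, 0.0554 and 0.0542 CPM. EP300, a histone acetyltransferase recruited by ETS proteins, rose by 0.54 in ETS1-Low and 0.68 in ETS1-High (adjusted p = 5.93e-21 and 4.84e-25, edgeR). SP100 is also an interferon-induced gene. Among partners of GABPA, GABPB2 rose by 0.71 with ETS1-Low and 0.80 with ETS1-High (adjusted p = 5.85e-18 and 3.31e-20, edgeR), and GABPB1 had changes of -0.02 and -0.12, of which the second passed (adjusted p = 0.762 and 0.0189, edgeR). COP1, which marks ETS1 and the PEA3 proteins for degradation, did not pass in any of the 3 comparisons, with changes between -0.08 and 0.02 and adjusted p between 0.0601 and 0.725 in edgeR. RUNX1, RUNX2, GABPB1, GABPB2 and COP1 were singled out after their values were seen.

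Genes that ERK signalling induces and that often rise and fall with ETV4 and ETV5 formed a list of 14. ETS1-High against RFP gave 5 higher and 6 lower calls and a median of 0.05. ETS1-Low against RFP gave 5 higher and 7 lower calls and a median of -0.21. ETS1-High against ETS1-Low gave 6 higher and 7 lower calls and a median of -0.07. These 11, 12 and 13 calls among 14 genes stand beside 74.2%, 74.1% and 59.2% over all genes. SPRY4, a feedback inhibitor of receptor kinase signalling, fell from a mean of 8.48 ± 0.606 CPM to 2.69 ± 0.244 with ETS1-Low and 0.386 ± 0.0357 with ETS1-High (SD, n = 3; adjusted p = 1.27e-19 and 3.02e-31, edgeR), in the same order of groups as ETV5. IER3, an early response gene, rose from 15.9 ± 0.513 to 32.7 ± 0.461 and 100.1 ± 6.14 CPM (adjusted p = 4.11e-25 and 1.42e-44, edgeR). CCND1, the gene of cyclin D1, rose from 1548 ± 42.4 to 2518 ± 20.3 and 2498 ± 15.1 CPM (adjusted p = 6.77e-27 and 1.25e-26, edgeR). SPRY4, IER3 and CCND1 thus moved in different directions.

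The genes whose profile over the 9 libraries was most like that of ETS1 were TGFBR2, TAPBPL, FAM155A, HNMT and TNFRSF1B, out of 12400 genes that averaged 100 counts or more; ETV4 and ETV5 were below that. Likeness was the root mean square difference of centred log2 CPM, which was 0.12 for TGFBR2, a receptor of TGF-beta, 0.14 for TAPBPL and 0.15 for the other 3. For TGFBR2 the mean was 5.90 ± 0.442 CPM with RFP, 28.9 ± 1.08 with ETS1-Low and 59.3 ± 1.61 with ETS1-High (SD, n = 3). By the same measure GABPA stood at rank 2044, ELK3 at 8590, ETV6 at 8839, ETV1 at 9016 and ETS2 at 10460. These genes were chosen for their likeness, so it is a description without a test.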

How the data were processed

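RNA-seq of 9 libraries was used. The authors deposited a gene table of expected counts and one of FPKM values, both named for RSEM per the file headers and names. The submitters' processing notes name cutadapt 4.4, STAR 2.7.3, featureCounts, Subread 2.0.3 and limma 3.38.3 and the build GRCh38, without saying which step made which table; the annotation is not given in the sources used here. Libraries were grouped by title, the letters L and H in the column names were read as ETS1-Low and ETS1-High, and 0 columns were left without a library. Between 9.00% and 10.3% of the expected counts per library were not whole numbers, and they were rounded.

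The rounded counts were tested with edgeR 4.0.16 (R 4.3.3; TMM, filterByExpr, robust quasi-likelihood, 1 fit of all 9 libraries by group). The test kept 17235 of 58381 genes, adjusted p-values by Benjamini-Hochberg over them and called a gene under 0.05. The fit was tested on simulated data with few changed genes, which does not check its error rate where most genes change. Levels are CPM on TMM-scaled library sizes, and genes are compared with each other in the authors' FPKM, which depends on the length RSEM assigned. SE and 95% intervals were derived from the quasi-likelihood F statistic. Replicate libraries differed by a chi-square of 2.66 to 5.19 per gene, above the value near 1 of sampling noise. Each library was counted once, although this value cannot show whether the libraries came from separate cultures. Counts are not corrected for PCR copies, so intervals and floors (3 counts) cover counting error only.

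Positions come from GENCODE v44 on GRCh38, matched by gene identifier for 99.2% of the genes tested; 1 symbol (COP1) was matched by identifier. Neighbours are tested genes whose start lies within 10 Mb. The 10 members are all named. From the other ETS genes FLI1 and the 3 largest called changes each way in ETS1-High against RFP are named, from the partner and ERK lists the 3 smallest p-values each, and the 5 genes most like ETS1. The members and lists were chosen with earlier results of these data known. Alternatives were other scalings, DESeq2 1.42.0, other filters, the replicate number as a block, a fit of each pair of groups alone, fits that drop 1 library at a time, and limma 3.58.1 on log2(FPKM + 1) or log2(FPKM + 0.1).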

Additional observations from a re-analysis of the deposited data

Results flagged for a closer look

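The 8 tested members are given here because the 2 ETS1 groups differed from each other in the edgeR test. The log2 fold change of ETS1-High against ETS1-Low was 0.85 for ETS1, which the choice of the groups implies. It was -4.04 for ETV4, a description only, since ETV4 had 6 to 7 counts a library in ETS1-High. It was -1.29 for ETV5, -0.75 for ETS2, -0.55 for ETV1 and -0.26 for ETV6. It was 1.05 for ELK3 and 0.09 for GABPA. The call of GABPA was lost in several alternatives given above, and that of ETV5 was lost in log2(FPKM + 1). In that comparison 59.2% of all genes tested were called.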

How the results depend on the processing

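Of 441 recomputed fold changes of the 8 tested members, 0 changed direction, 415 stayed on their side of the threshold, 16 lost the call and 10 gained it. Of 285 recomputed counts of calls, 270 stayed within 1.5 times. The others came from FPKM, where fewer genes were tested: with a mean of at least 1 FPKM and a pseudocount of 1 or 0.1, 6 members were tested. There ETS1-High against RFP gave 5 member calls, ETS1-Low against RFP gave 3, of which 2 were higher and 1 lower, and ETS1-High against ETS1-Low gave 5. Of the other ETS genes 8 were tested there, and 6 were called in ETS1-High against RFP and 6 in ETS1-Low against RFP (2 higher and 4 lower, against 6 and 4 in counts). Of the ERK list 8 were tested, and 7 were called in ETS1-High against RFP and 6 in ETS1-High against ETS1-Low, or 8 of 14 with no filter. FPKM with no filter moved the share of higher calls over all genes from 49.8% to 38.4% for ETS1-High and from 51.2% to 36.8% for ETS1-Low, each relative to RFP. The ETS1 share of the family in ETS1-Low and ETS1-High was 1.47% and 2.60% without FLI1 and 1.43% and 2.54% in CPM; over the 10 members it was 1.26%, 6.03% and 10.4% from RFP to ETS1-High.

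Same-numbered libraries did not deviate together (correlations of -0.03 to 0.03). The fit with the replicate number as a block called 12701, 12729 and 10122 genes (12785, 12773 and 10196 without it) for ETS1-High and then ETS1-Low relative to RFP and for the ETS1 groups, with 8, 5 and 8 members, as without it. Depth limits ERG, FEV, ETV4 and ETV5, which had at most 111 counts in any library.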
